A study of Homo sapiens with 8 samples.

Results

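The values come from the 3 arrays, of 8 in the series, on which L363 cells kept with the IKKβ inhibitor MLN120B for 24 h were set against L363 cells given the solvent DMSO alone; the arrays were chosen by the time in their sample titles. L363 is an established human plasma cell line used as a model of multiple myeloma, and it is 1 line with no altered gene or second inhibitor in these samples. MLN120B was given at 12.5 µM and 37 °C for 24 h, and how long the control cells spent in DMSO is not given in the sources used here. Each array carried Cy5-labelled cDNA from treated cells and Cy3-labelled cDNA from DMSO cells, so every array holds its own control. The other 5 arrays measured the same comparison after 8 h (2 arrays) and 12 h (3 arrays). The series title places them in a study of NF-κB in multiple myeloma, and its design text speaks of 3 time courses.

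NF-κB is a family of transcription factors held inactive in the cytoplasm by IκB proteins. The kinase IKKβ, with its partners IKKα and NEMO, marks IκB proteins for destruction, after which NF-κB enters the nucleus and switches on its targets, among them the genes of its own inhibitors and of some of its subunits. Many myelomas keep this pathway active through mutations in its regulators, and plasma cells also depend on a large endoplasmic reticulum (ER) to fold and secrete antibody.

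Values are the authors' deposited ratios on the log2 scale, centred on each array's median, with negative values likely meaning less RNA with MLN120B. That direction rests on the labels, which put treated cells in Cy5, and on the usual order of Cy5 over Cy3. It is not stated, and turning it would reverse every direction below. Treated RNA was in Cy5 on all arrays, and bias from the dyes and effect of the inhibitor cannot be told apart. Whether the 3 samples were grown as separate cultures is not given in the labels. The p-values and standard errors (SE) therefore reflect only the spread between the arrays measured, part of which may be technical. That spread was estimated in limma over the arrays of all times together, so it is not the spread of these 3 samples alone. The ratio was tested against 0 with limma, in which the spread of the DMSO control is not estimated apart from that of treated cells.

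The 3 arrays differed in quality. Samples 1, 2 and 3 held values for 6344, 12986 and 9868 of 15246 array features, and the SD of the ratios over features was 1.00, 0.28 and 0.35. Sample 1 therefore stood apart, and each list's counts of members below or above 0 are given with and without it. Over the 2533 named genes with values on all 3 arrays, Pearson's correlation was 0.085 between samples 1 and 2, 0.013 between samples 1 and 3 and 0.18 between samples 2 and 3, over genes, which are not independent replicates. Each of the 3 arrays lies in a separate run of database numbers, called a database run here, and array and run cannot be told apart. A ratio gives no level, so the plasma cell origin of the RNA could not be checked from markers; 16 of the 25 genes listed as plasma cell identity had values on all 3 arrays. IKBKB, which encodes IKKβ, had no feature annotated to it and was not analysed here.

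No gene passed the test across all rows. Of 5411 rows tested with limma, 3311 of them named genes, 0% had a Benjamini-Hochberg adjusted p under 0.05 at 24 h, and the smallest adjusted p was 0.9996. Without adjustment, 80 rows (1.48%) had a p under 0.05 on the lower side and 29 (0.536%) on the higher side. About 271 such rows would be seen if no row differed and the assumptions of the fit held. The fit took all arrays as equally variable, but the SD of their ratios ran from 0.21 to 1.42 over the 8 arrays. These p-values may therefore be off, and the low counts do not show that no row differed. Of the 2533 named genes with 3 values, 353 (13.9%) lay below 0 on all 3 arrays and 307 (12.1%) above 0 on all 3. The gene lists are read against these shares. Without sample 1, 27.4% lay below 0 on both other arrays and 24.6% above, which are the shares for counts on samples 2 and 3.

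Genes of the study's NF-κB signature lay almost entirely below 0. Of the 11 genes remembered as the NF-κB signature of the study's own paper, 10 were measured (BIRC3 was not analysed here), and 9 of these 10 lay below 0 on all 3 arrays, against 13.9% of all named genes. That list was chosen in part on these arrays and is not independent evidence of its direction. Its median was -0.94, against -0.018 over all named genes, and on the arrays of samples 1, 2 and 3 its medians were -0.98, -0.34 and -1.03. On samples 2 and 3 alone, all 10 were below 0 on both, against 27.4% of named genes. The list supplied 4, 5 and 8 of its 10 genes to the lowest 5% of named genes on the arrays of samples 1, 2 and 3.

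**Figure D1:**
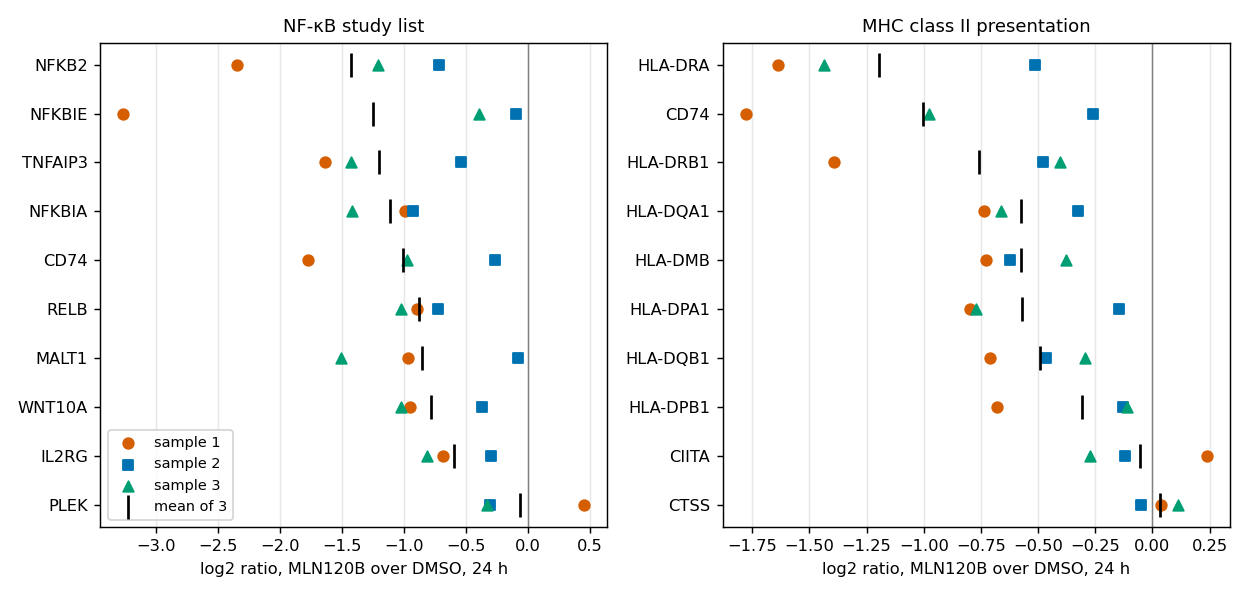
Ratios at 24 h of the NF-κB study list, 10 measured genes (left), and of MHC class II presentation, also 10 (right), as log2 of MLN120B over DMSO on the horizontal axes; coloured points are the 3 samples and black bars their means. Sample 2 lies nearest to 0 for all 10 genes on the left, and PLEK, CIITA and CTSS have points on both sides of 0.

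The promoters of 4 genes of this list are shown because they hold matches to the κB consensus, the sequence that NF-κB binds. Promoter sequences are from RefSeq on GRCh38.p14 and run for 150 bases up to the gene's start, 5′ to 3′ on the gene's strand, with the κB matches in capitals. NFKB2 has 3 annotated starts, whose windows held 0, 3 and 2 matches in order, and the second is shown because it held the most.

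NFKBIA, chr14:35404750-35404899, minus strand: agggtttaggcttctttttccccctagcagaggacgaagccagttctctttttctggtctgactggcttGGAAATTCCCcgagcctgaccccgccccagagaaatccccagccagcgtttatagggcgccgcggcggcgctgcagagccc
TNFAIP3, chr6:137867109-137867258, plus strand: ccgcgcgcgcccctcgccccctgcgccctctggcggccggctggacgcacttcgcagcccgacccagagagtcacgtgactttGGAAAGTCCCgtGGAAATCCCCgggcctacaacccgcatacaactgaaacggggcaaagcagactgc
NFKB2, chr10:102394428-102394577, plus strand: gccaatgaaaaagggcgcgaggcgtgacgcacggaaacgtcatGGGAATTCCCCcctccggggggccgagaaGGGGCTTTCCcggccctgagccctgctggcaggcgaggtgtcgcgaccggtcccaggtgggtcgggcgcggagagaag
WNT10A, chr2:218880702-218880851, plus strand: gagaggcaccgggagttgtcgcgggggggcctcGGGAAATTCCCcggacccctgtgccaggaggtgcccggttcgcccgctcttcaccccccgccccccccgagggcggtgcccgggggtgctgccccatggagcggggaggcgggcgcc

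The consensus searched was the degenerate 10-base κB motif, on both strands, in windows from 250 bases before to 50 bases after each start. In NFKB2 and WNT10A, 2 of the matches overlap by all but 1 base and form 1 stretch of 11 bases. A match was found for 5 of the 8 measured genes of the study list that have a promoter entry. Over all 35116 promoter windows 5.91% held a match, and over the 2108 named genes with 3 values and an entry the share was 9.25%. Of genes below 0 on all 3 arrays that have an entry, 32 of 296 (10.8%) held one, and of those above 0 on all 3, 14 of 252 (5.56%) did. A match describes the letters of the window and does not show binding.

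NFKBIA encodes IκBα, the main inhibitor that IKKβ marks for destruction and itself an NF-κB target. Its ratios were -0.99, -0.93 and -1.42 on samples 1, 2 and 3, a mean of -1.11 ± 0.22 (SE from limma, n = 3), or 2.16-fold lower. The 3 arrays lay close together for NFKBIA, and 14 of 14 feature values of this gene were below 0. Its p was the smallest of all rows, 0.00069 before adjustment and 0.9996 after Benjamini-Hochberg adjustment in limma.

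TNFAIP3 encodes A20, an enzyme that edits ubiquitin chains and shuts off signals to IKK. It was at -1.64, -0.54 and -1.43 on samples 1, 2 and 3, with a mean of -1.20 ± 0.29 (SE, n = 3), and all 6 of its features were below 0 on all 3 arrays. NFKBIE, which encodes IκBε, had ratios of -3.27, -0.10 and -0.40, so that most of its mean of -1.25 ± 0.52 (SE, n = 3) came from sample 1, and sample 2 was near 0. CYLD, a deubiquitinase that removes activating chains from the pathway, was at -0.42, -0.25 and -0.76 from 1 feature.

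Among the subunit genes, the noncanonical pair was low on every array. NFKB2, the gene of p100 and p52, had ratios of -2.35, -0.71 and -1.21 on samples 1, 2 and 3, and all 11 of its feature values were below 0. RELB, whose protein pairs with p52, was at -0.90, -0.72 and -1.02, a mean of -0.88 ± 0.30 (SE, n = 3), with a smaller spread between arrays (SD 0.15) than NFKB2 (SD 0.84). These SDs are of averages over features that differ between arrays. The 1 RELB feature with values on all 3 arrays was at -0.90, -0.75 and -1.43, and a feature at -0.04 had a value on sample 3 only. The canonical subunit genes were less even. NFKB1, the gene of p105 and p50, was at -1.74, 0.01 and -0.59, with sample 2 near 0. REL was at 0.45, 0.10 and -0.18, on both sides of 0, and RELA had no value on sample 1 and -0.10 and -0.08 on samples 2 and 3. Of the 9 subunit, inhibitor and feedback genes with 3 values, 6 lay below 0 on all 3 arrays and 0 above; 5 of these 6 also belong to the study list. Of the 9, 7 were below 0 on both samples 2 and 3 and 0 above. BCL3, an atypical IκB protein, was at 0.28, -0.23 and -0.60.

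The remaining genes of the study list serve in signalling, adhesion and antigen presentation. MALT1, a protease that relays antigen receptor signals to IKK, had ratios of -0.97, -0.08 and -1.51, with sample 2 near 0. WNT10A, a Wnt ligand, was at -0.95, -0.37 and -1.03, and both of its features were below 0 on all 3 arrays. IL2RG, the common chain of several interleukin receptors, was at -0.68, -0.30 and -0.81. PLEK, a protein kinase C substrate, was at 0.46, -0.31 and -0.33, with an SD of 0.45 between these arrays. Its mean was -0.06 ± 1.34 (SE, n = 3). That SE rests on the spread of the arrays of all times and was far above the size of the mean. The features of these genes largely ran the same way, except for MALT1, where 4 of 6 feature values were below 0 and 2 above.

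Upstream of NF-κB the picture was mixed. Of 14 genes of kinases, adaptors and receptors with 3 values, 2 lay below 0 on all 3 arrays and 3 above, and their median of 0.06 turned to -0.10 in the values as deposited and to -0.0053 after scale normalization. Without sample 1, 5 of the 14 were below 0 and 6 above. CHUK, the gene of IKKα, was at -1.62, -0.16 and -0.40 on samples 1, 2 and 3. BIRC2, a ubiquitin ligase that keeps the kinase NIK low, was at -0.76, -0.01 and -0.04. MAP3K14, the gene of NIK, was at -1.20, 0.05 and 0.18, on both sides of 0. The 3 genes above 0 on all arrays were TRAF1, CD40 and TNFRSF1A. CD40 was at 0.15, 0.10 and 0.17, and its mean of 0.14 ± 0.21 (SE, n = 3) turned to -0.02 in the values as deposited.

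Genes listed from textbooks as NF-κB targets in other cells, without the measured genes of the study list, lay on both sides of 0. Left out in this way were NFKBIA, TNFAIP3, NFKB2, RELB and NFKBIE, among others, and these lay below 0 on all 3 arrays. The counts here therefore do not describe NF-κB targets as a whole. Of 37 with 3 values, 8 lay below 0 on all 3 arrays (21.6%, against 13.9%) and 5 above (13.5%, against 12.1%), with a median of -0.11. On samples 2 and 3 alone, 16 of the 37 lay below 0 and 8 above. The 8 below 0 on all 3 arrays were MIR155HG, PSMB9, MYB, TAP1, BIRC2, CXCL8, JUNB and HLA-B. The 5 above 0 on all 3 were CD40, TRAF1, CD44, MYC and TAPBP. MYC, a growth regulator often active in myeloma, was at 0.14, 0.58 and 0.30, above 0 on each array. Of its 4 features, 2 were above 0 on all 3 arrays.

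MIR155HG, the transcript from which the microRNA miR-155 is cut, had the second smallest p of all named genes on the lower side. It was at -1.24, -0.76 and -1.27 on samples 1, 2 and 3, a mean of -1.09 ± 0.22 (SE, n = 3), with an unadjusted p of 0.00075 and an adjusted p of 0.9996 in limma. Its 2 features with values on all 3 arrays were both below 0 on all 3, between -0.76 and -3.31, while its other 2 features gave 0.48, -0.07 and -0.03. The mature miRNA is shown to identify the product, with its seed, bases 2 to 8, in capitals; the sequence is from RefSeq on GRCh38.p14, and the arrays measured the host transcript and not the miRNA.

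hsa-miR-155-5p, chr21:25573983-25574006, plus strand: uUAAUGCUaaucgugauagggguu

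Most measured MHC class II genes lay below 0. These genes encode the molecules that present peptides to helper T cells, and CD74 is their invariant chain. Of 10 members with 3 values, 8 lay below 0 on all 3 arrays, against 13.9% of all named genes, 0 lay above, and the median was -0.57. On samples 2 and 3 alone, 9 of 10 were below 0 on both and 0 above, against 27.4% and 24.6%. CD74 is also a member of the NF-κB study list. Some HLA genes are close in sequence, so values of single HLA genes can be uncertain.

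HLA-DRA, the α chain of HLA-DR, had the lowest mean of the class II genes, with ratios of -1.64, -0.51 and -1.44 on samples 1, 2 and 3 (-1.20 ± 0.31, SE, n = 3). CD74 was at -1.78, -0.26 and -0.98, and 30 of 30 values of its 12 features were below 0. HLA-DRB1 was at -1.39, -0.48 and -0.40, with sample 1 lowest. For all of these, sample 1 gave the lowest ratio averaged over features, but single features differed. Those of HLA-DRA ran from -3.30 to -0.25 on sample 1 and from -1.82 to -0.75 on sample 3. Those of HLA-DRB1 ran from -3.155 to -0.288 on sample 1, and 2 of its 14 feature values were above 0.

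HLA-DMB, whose protein helps load peptides, was more even over the arrays, at -0.73, -0.62 and -0.38. HLA-DQA1 was at -0.74, -0.33 and -0.66, and 15 of 15 of its feature values were below 0. HLA-DQB1 was at -0.71, -0.47 and -0.30. HLA-DPA1 was at -0.80, -0.15 and -0.77, and HLA-DPB1 at -0.68, -0.13 and -0.11. CIITA, the activator of class II transcription, was at 0.24, -0.12 and -0.27 and so on both sides of 0, and CTSS, a protease that trims the invariant chain, was at 0.04, -0.05 and 0.11. MHC class I and immunoproteasome genes were divided, with 4 of 13 below 0 on all 3 arrays and 2 above, and a median of -0.017; without sample 1, 5 were below 0 and 3 above. PSMB9, an immunoproteasome subunit, was at -2.21, -0.47 and -0.17, and TAPBP, which loads class I molecules, at 1.52, 0.06 and 0.30.

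**Figure D2:**
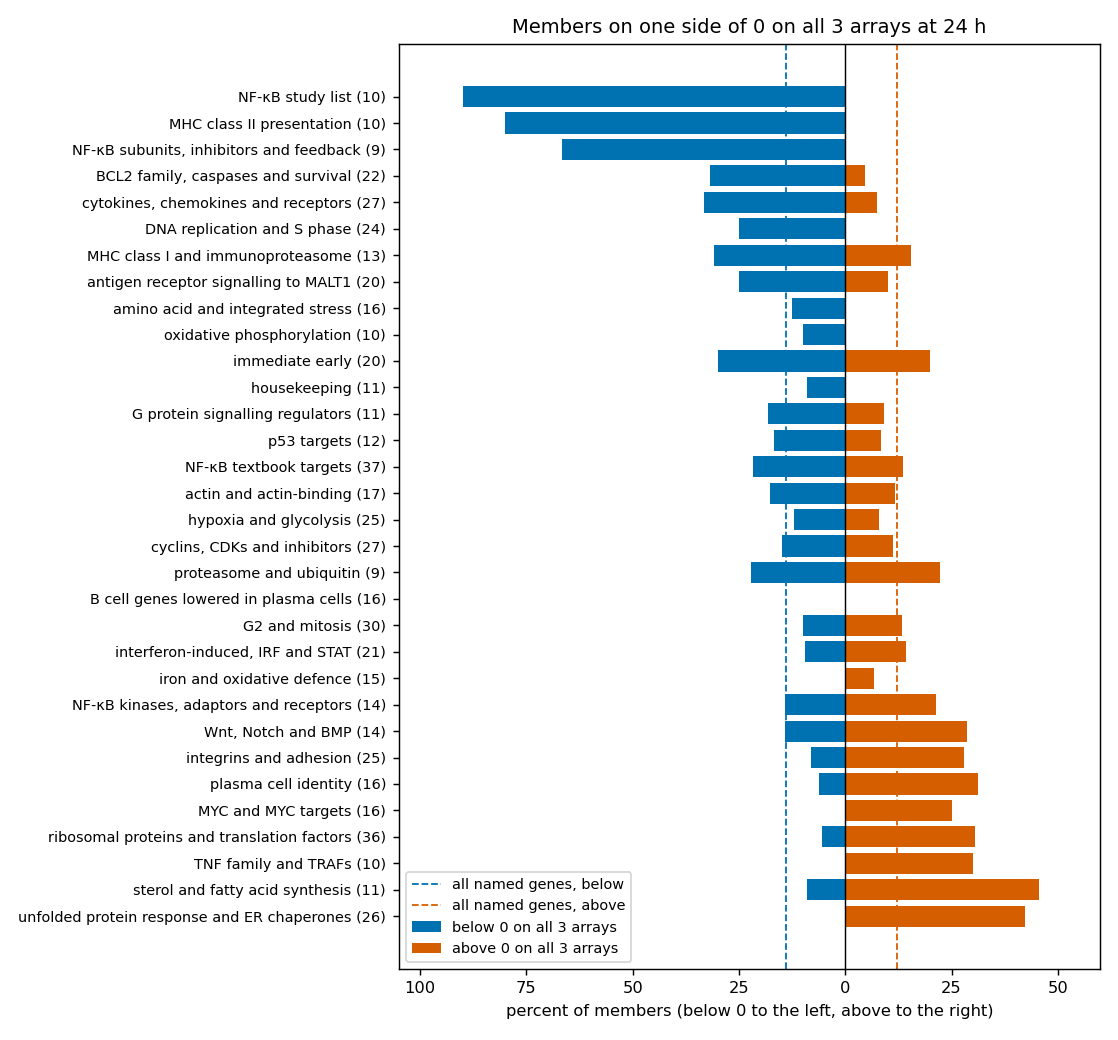
Percent of each list's members, among those with values on all 3 arrays at 24 h (number in brackets), that lay below 0 on all 3 arrays (bars to the left) or above 0 on all 3 (bars to the right); dashed lines give the shares of all named genes, 13.9% and 12.1%. Only lists with at least 9 such members are drawn; the lists of NF-κB study genes and of MHC class II extend farthest to the left, and the sterol and ER lists farthest to the right, though values as deposited leave 3 members above 0 in each of those.

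Genes above 0 were led by ITGB7, the integrin β7 chain that pairs with α4 or αE in lymphocyte adhesion. Its ratios were 1.47, 0.83 and 2.04 on samples 1, 2 and 3, a mean of 1.45 ± 0.34 (SE, n = 3), or 2.72-fold higher. Its unadjusted p was 0.0020, and its adjusted p was 0.9996 in limma. All 10 of its feature values were above 0, and the mean of samples 2 and 3 alone was 1.43. ITGA4, the α4 partner, was at 0.62, 0.20 and 0.56. ITGAL, the α chain of LFA-1, was at 0.64, 0.26 and 0.41, and ITGB2, the β chain of the same integrin, at -0.38, -0.12 and -0.13, so the 2 chains lay on opposite sides of 0. Of 25 integrin and adhesion genes with 3 values, 7 lay above 0 on all 3 arrays, against 12.1%, and 2 below, and the median of 0.013 turned to -0.15 in the values as deposited. Leaving out sample 1, 10 of these 25 lay above 0 and 5 below.

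Genes of sterol and fatty acid synthesis included several with ratios above 0. Of 11 with 3 values, 5 lay above 0 on all 3 arrays (45.5%, against 12.1%) and 1 below, with a median of 0.32; in the values as deposited 3 lay above. INSIG1, an ER protein that restrains sterol synthesis and is itself induced when sterols are low, was at 1.13, 0.87 and 0.63, a mean of 0.88 ± 0.25 (SE, n = 3). SCD, which makes monounsaturated fatty acids, was at 0.33, 0.62 and 1.22. Its features disagreed on sample 1, where they ran from -0.64 to 2.16. Of its 5 features with values on all 3 arrays, 2 were above 0 on all 3. IDI1, an enzyme of isoprenoid synthesis, was at 0.44, 0.41 and 0.48 from 1 feature, with very little spread between arrays.

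The other members were less even. CYP51A1, a demethylase of sterol synthesis, was at 0.91, 0.21 and 0.04, and SC5D, a desaturase of the same pathway, at 1.45, 0.09 and 0.02, so for both the mean came largely from sample 1. SQLE, a rate-limiting enzyme of the pathway, was at -1.04, 0.22 and 0.27, and INSIG2 at -1.09, 0.09 and 0.11, where sample 1 opposed the others. SREBF2, the gene of the transcription factor SREBP2 that drives this pathway, was at -0.17, -0.22 and -0.17. On samples 2 and 3 alone, 8 of the 11 lay above 0, against 24.6% of named genes, and 1 below.

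The ER list was the longer of these. It covers ER chaperones, translocation and the unfolded protein response, which raises folding capacity under load. Of 26 members with 3 values, 11 lay above 0 on all 3 arrays (42.3%, against 12.1%) and 0 below, with a median of 0.20 that was 0.042 in the values as deposited, where 3 lay above. SSR3, part of a complex beside the translocon, was at 0.70, 0.31 and 0.74. SEC61A1, the channel through which proteins enter the ER, was at 0.31, 0.28 and 0.74, and HSPA5, the chaperone BiP, at 0.28, 0.35 and 0.46. All 3 arrays showed these genes above 0, with sample 3 highest.

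Differences from array to array were large within this list too. On sample 3, 11 of the 26 were among the highest 5% of named genes, against 3 on sample 2 and 0 on sample 1. XBP1, the transcription factor of the secretory program, was at -0.66, 0.10 and 0.26, and DNAJB9, one of its targets, at -1.07, 0.24 and 0.38. SSR4 was at -1.68, -0.06 and 0.59. Without sample 1, 18 of 26 lay above 0 on both arrays, against 24.6% of named genes, and 0 below.

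**Figure D3:**
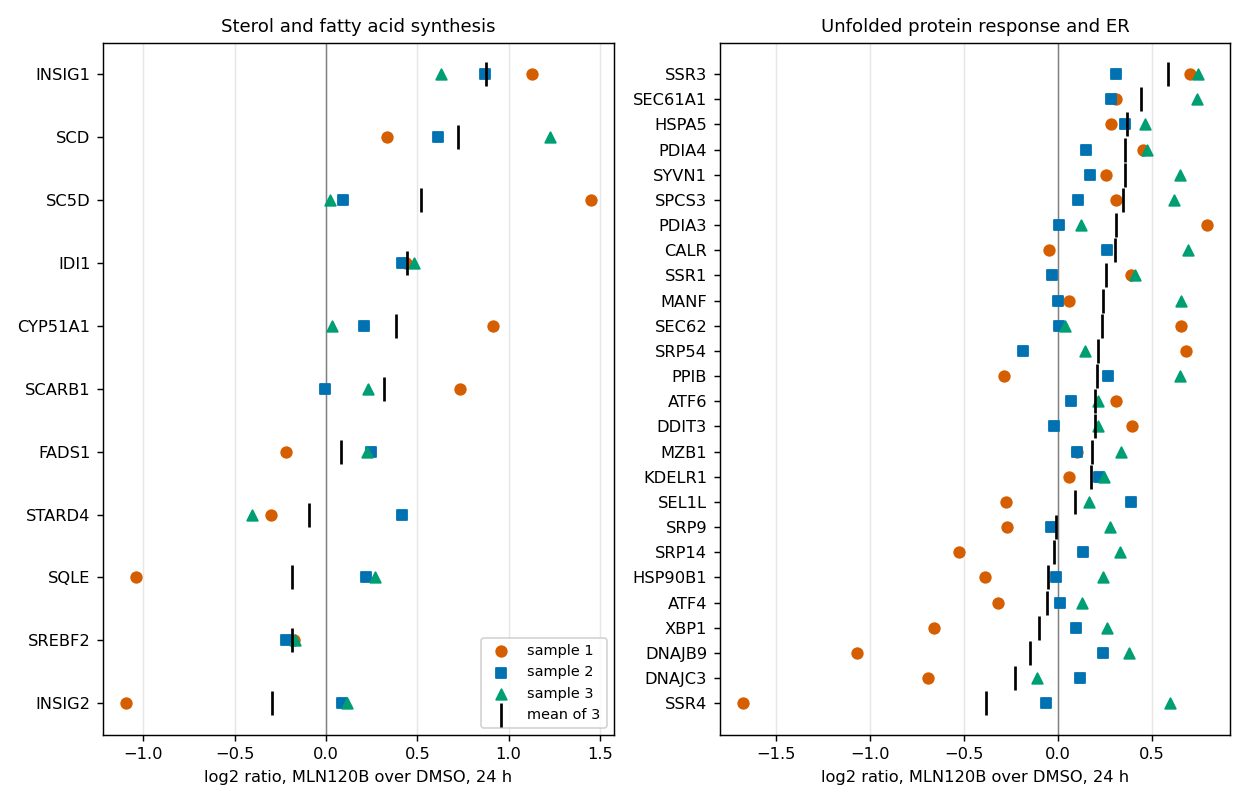
Ratios at 24 h of genes of sterol and fatty acid synthesis (left, 11 genes) and of the unfolded protein response and ER (right, 26 genes), as log2 of MLN120B over DMSO on the horizontal axes; coloured points are the 3 samples and black bars their means. INSIG1, SCD and IDI1 lie above 0 on each array, while sample 1 lies far below 0 for SQLE, INSIG2, DNAJB9 and SSR4; in the values as deposited, 3 genes of each list lie above 0 on all 3 arrays.

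Away from these lists, the genes whose value nearest to 0 was most extreme on the lower side included RGS16, NEK6, CDH1 and ZYG11B. RGS16, which shortens G protein signals, was at -2.23, -0.57 and -0.95 on samples 1, 2 and 3. NEK6, a mitotic kinase, was at -0.83, -0.63 and -0.91, a mean of -0.79 ± 0.20 (SE, n = 3). CDH1, the gene of E-cadherin, was at -1.12, -0.53 and -0.52, and ZYG11B, a substrate receptor of a ubiquitin ligase, at -2.12, -0.48 and -1.01. RGS16, CDH1 and ZYG11B were lowest on sample 1, and NEK6 was nearly level over the arrays.

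On the higher side the same rule named CCDC86, SNX18, METTL14, IFNAR2, PM20D2 and CTSL besides ITGB7, INSIG1, IDI1 and SCD. CCDC86, a nucleolar protein, was at 0.77, 0.81 and 0.86 from 1 feature, with an SD of 0.047. SNX18, a sorting nexin of membrane traffic, was at 0.82, 0.52 and 0.63, and METTL14, part of the enzyme that methylates adenosine in mRNA, at 0.55, 0.47 and 0.68. IFNAR2, a chain of the type I interferon receptor, was at 1.17, 0.38 and 0.54. CTSL, a lysosomal protease, was at 0.34, 0.57 and 0.34, and PM20D2 at 1.20, 0.35 and 0.42. Most of these rest on 1 feature. CTSL rests on 3, which disagreed on sample 2, where they ran from 0.036 to 1.395. Of its 2 features with values on all 3 arrays, 1 was above 0 on all 3.

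**Figure D4:**
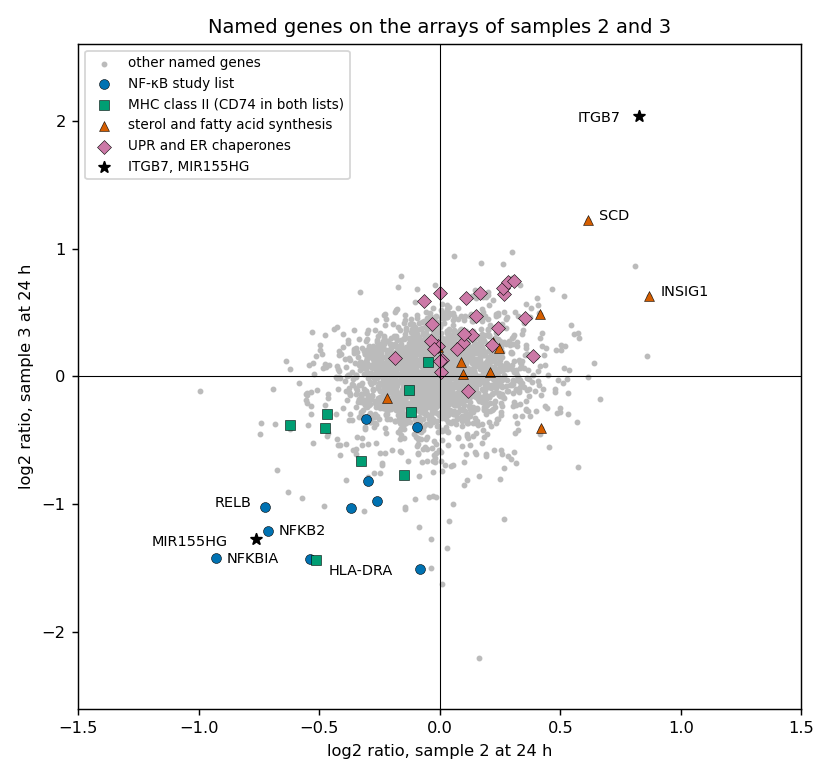
Ratios at 24 h of named genes with 3 values, as log2 of MLN120B over DMSO on sample 2 (horizontal axis) and sample 3 (vertical axis); coloured symbols mark 4 lists and stars mark ITGB7 and MIR155HG. NFKBIA, MIR155HG, NFKB2 and RELB lie at the lower left and ITGB7, SCD and INSIG1 at the upper right; 1 gene lies outside the axes.

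Cytokine, chemokine and receptor genes link myeloma cells to the bone marrow. Of 27 with 3 values, 9 (33.3%, against 13.9%) were below 0 on all 3 arrays and 2 (7.41%, against 12.1%) above, with a median of -0.11. Without sample 1, 13 of the 27 were below 0 (48.1%, against 27.4%) and 5 above. CXCR4, the receptor that holds plasma cells in the bone marrow, was at -0.48, -0.35 and -0.61, and FGF2, a growth factor, at -1.53, -0.30 and -0.78. IL6R, the receptor of the myeloma growth factor interleukin 6, was at 0.56, 0.17 and 0.26, while IL6ST, its signalling partner gp130, was at -0.45, -0.10 and -0.24, so the 2 chains lay on opposite sides of 0.

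Genes of the BCL2 family, caspases and other regulators of survival lay on both sides of 0. Of 22 with 3 values, 7 lay below 0 on all 3 arrays (31.8%, against 13.9%) and 1 above, with a median of -0.024. On samples 2 and 3 alone, 10 of the 22 lay below 0 (45.5%, against 27.4%) and 3 above. BCL2, which blocks cell death, was at -0.23, -0.05 and -0.95, low on sample 3 only. MCL1, on which myeloma cells often depend, was at -0.36, -0.08 and -0.02. The genes below 0 include both kinds, since BAX, BAD and BBC3 promote cell death. BAX was at -0.17, -0.23 and -0.08, and BBC3, the gene of PUMA, at -0.33, -0.51 and -0.10. For BAX, 7 of 12 feature values were below 0 and 5 above.

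Plasma cell identity genes were followed because they define the cell type. Of 16 with 3 values, 5 lay above 0 on all 3 arrays (31.3%, against 12.1%) and 1 below, with a median of 0.12 that turned to -0.039 in the values as deposited. Without sample 1, 10 of the 16 were above 0 (62.5%, against 24.6%) and 3 below. PRDM1, the regulator that fixes plasma cell fate, was at 0.23, 0.28 and 0.38, and SDC1, the plasma cell surface marker CD138, at 0.13, 0.06 and 0.47. The features of SDC1 disagreed, with 1 of 3 above 0 on all 3 arrays and 3 of 9 feature values below 0. CD38 was at 1.43, 0.14 and 0.28, with no feature holding values on all 3 arrays. Of 16 B cell genes that plasma cells normally silence, 0 lay below 0 on all 3 arrays and 0 above, and on samples 2 and 3 alone 5 lay below 0 and 0 above.

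Of 24 DNA replication genes with 3 values, 6 lay below 0 on all 3 arrays (25%, against 13.9%) and 0 above, with a median of -0.11; without sample 1, 10 lay below 0 and 3 above. PCNA, the sliding clamp of replication, was at -0.44, -0.13 and -0.24, and RPA2, which binds single-stranded DNA, at -1.12, -0.11 and -0.13. Genes of G2 and mitosis were divided, with 3 of 30 below 0 and 4 above, and those of cyclins and their kinases likewise, with 4 of 27 below 0 and 3 above. With sample 1 left out, these counts were 10 below 0 and 6 above for G2 and mitosis, and 9 below 0 and 4 above for cyclins and their kinases. Of 36 genes of ribosomal proteins and translation factors, 11 lay above 0 on all 3 arrays (30.6%, against 12.1%) and 2 below, with a median of 0.13 that turned to -0.031 in the values as deposited. Without sample 1, 20 of the 36 were above 0 (55.6%, against 24.6%) and 3 below.

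The marker lists of other cells had few measured members: 5 T cell, 4 myeloid, 3 erythroid and 2 stromal genes had 3 values. Their array medians ran from -0.24 to 0.20 for T cell markers, from -0.91 to 0.0080 for myeloid, from -0.016 to 0.12 for erythroid and from -0.60 to 0.18 for stromal markers. Of 11 housekeeping genes, 1 lay below 0 on all 3 arrays and 0 above (3 and 0 without sample 1), with array medians of -0.53, -0.12 and 0.083 on samples 1, 2 and 3 that differ in sign. Their part in the results was not tested.

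Set against the shorter times, 24 h gave no row past the threshold. The sample numbers pair the arrays of 12 h and 24 h, and of 2383 named genes with 3 such pairs, 452 (19%) were lower at 24 h within all 3 numbers and 279 (11.7%) higher. In limma 0% of 5411 rows passed an adjusted p under 0.05 for 24 h against 12 h, with 37 at an unadjusted p under 0.05, and 0% passed for 24 h against 8 h, with 44 unadjusted. The NF-κB study list had medians of -0.29, -0.80 and -0.94 at 8 h, 12 h and 24 h, and 2 of its 10 genes had the lower value at 24 h within all 3 sample numbers. MHC class II genes had medians of 0.069, -0.48 and -0.57 at the 3 times. At 12 h NFKBIA was at -1.33, -0.82 and -1.60 in samples 1, 2 and 3, and its 8 h ratios were -0.53 and -0.30; its difference between 24 h and 12 h was 0.14 ± 0.31 (SE from limma).

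Some single genes lay farther apart between times. MIR155HG was at 0.19, -0.29 and -0.50 at 12 h and at -0.18 and 0.15 at 8 h, and its difference between 24 h and 12 h was -0.89 ± 0.31 (SE, n = 3 at each time), with an unadjusted p of 0.018 and an adjusted p of 0.9999 in limma. The 24 h value was the lower one within all 3 sample numbers. ITGB7 was at -0.40, 0.43 and 1.23 at 12 h, and it was higher at 24 h within each number by 1.87, 0.40 and 0.80. HLA-DRA was at -1.40, -0.10 and -0.34 at 12 h and at 0.00 and -0.22 at 8 h.

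Some genes lay on opposite sides of 0 at the 2 times. CSTF3, a factor of mRNA 3′ end formation, was at 0.64, 0.29 and 0.63 at 12 h and at -1.23, -0.26 and -0.09 at 24 h. At 24 h the CSTF3 value of sample 1 came from 1 feature and those of samples 2 and 3 from another. PPP1R15B, which returns translation factor eIF2α to its unphosphorylated form, was at 1.47, 0.39 and 0.44 at 12 h and at -0.85, -0.17 and -0.20 at 24 h. Both were also above 0 on both arrays at 8 h, and neither difference passed after adjustment (0.9999 in limma). In all, 34 of 2383 named genes were above 0 on all 3 arrays at 12 h and below 0 on all 3 at 24 h, and 10 showed the reverse. More genes kept their side, with 79 below 0 on all 3 arrays at both times and 80 above.

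**Figure D5:**
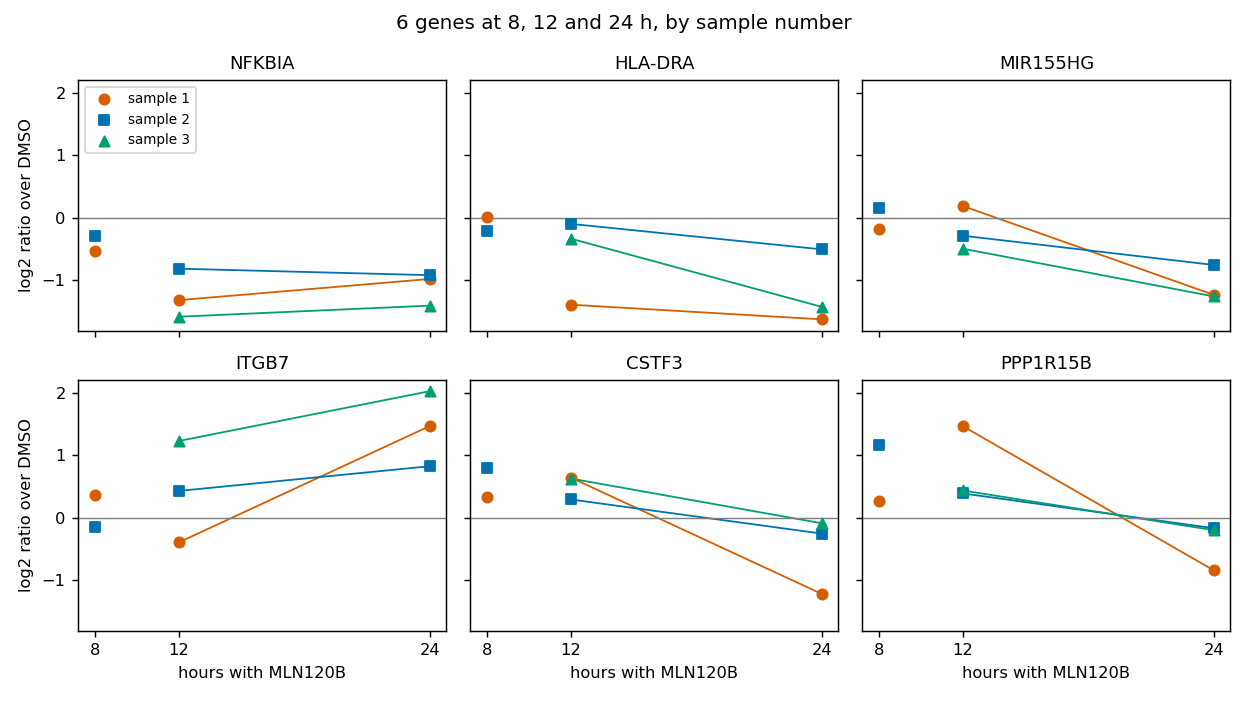
Ratios of 6 genes (log2 of MLN120B over DMSO, vertical axes) against hours with MLN120B (horizontal axes). Points are single arrays coloured by sample number, and lines join the same number at 12 h and 24 h. The numbers at 8 h do not follow the database runs of the other times. NFKBIA is low at both times, MIR155HG, CSTF3 and PPP1R15B are lower at 24 h within each number, and ITGB7 is higher.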

How the data were processed

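Total RNA, extracted with TRIzol per the labels' protocols, was read on 2-colour spotted arrays. The authors deposited 1 column of log2 ratios (Cy5 over Cy3, likely) for each array. Base 2 is read from their range and assumed for all arrays. The authors' background correction, spot filter and normalization are not stated in the labels or files used here. Intensities were not used, signal over background is therefore unknown, and precision is limited by the number of arrays. Each array was centred on its median; those at 24 h were -0.48, 0.001 and -0.0055 for samples 1, 2 and 3. GEO's platform annotation named 1 gene for 10169 features, several for 4 and none for 5073. RefSeq (GRCh38.p14) gave current symbols, 10128 by Entrez identifier and 17 by accession, while 24 kept the listed symbol. Ratios were averaged over a gene's features, and a row was tested where each time had 2 or more values. The model in limma 3.58.1 (R 4.3.3) had 1 mean per time over all 8 arrays (5 residual degrees of freedom, 2-sided, Benjamini-Hochberg over all rows, threshold 0.05). The fit was also run on simulated ratios that gave each row the same spread on every array. These arrays differ in spread, so that run does not show how the fit behaves here. Gene lists were summarised over named genes with 3 values at 24 h. Tables and plots were made with pandas 2.3.3 and matplotlib 3.10.9 in Python 3.11.15.

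The arrays, lists and named genes were chosen with earlier results of these data known. Genes named were those of the NF-κB study list, the 10 lowest and 10 highest by the value nearest to 0, the 5 with the smallest p in each direction, the 3 largest means with 1 sign on all 3 arrays (otherwise the 1 largest) in each other list, the 3 with the smallest p for 24 h against each other time, and, for lists described in depth, further members; not all are printed. The sample numbers pair the 12 h and 24 h arrays: deviations from the group means of same-numbered arrays correlated at 0.20, 0.25 and 0.30 over 3662 rows, and each pair lies in 1 run of database numbers of the labels. Alternatives were the values as deposited, scale and quantile normalization, other filters, features on their own, the 24 h arrays alone, sample number or database run as a block, array weights, robust variances and each array left out.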

Additional observations from a re-analysis of the deposited data

How the results depend on the processing

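The count of 0 rows past the threshold at 24 h held under 14 of 15 alternatives; quantile normalization gave 2, NFKB2 at -2.28 (adjusted p = 0.022) and RGS16 at -1.45 (adjusted p = 0.038) in limma. With sample number as a replicate block it was also 0 at 24 h and for both differences between times, and the block changed no other call. At 8 h, sample 1 lies in the database run of sample 2 at 12 h and 24 h, and sample 2 in that of sample 1. The block therefore joins arrays of different runs at 8 h and is not a matched check for 24 h against 8 h. For 24 h against 8 h the count was 0 to 77 when single arrays were left out, 77 without sample 1 at 8 h, where 1 array stands for that time and is assumed to vary like the others, and the cause was not tested; the other alternatives gave 0. Many of the 95 named genes were chosen for having the same sign on every 24 h array. For these, leaving out an array or weighting the arrays could not turn the mean, so those alternatives did not test their direction. EBF1 and PLEK had values on both sides of 0 at 24 h. Of the 95 genes, 92 kept the direction of their 24 h mean under all alternatives run. The exceptions were CD40, at -0.019 in the values as deposited, EBF1, from -0.029 (without sample 1) to 1.20 with an array left out, and PLEK, from -0.32 to 0.076, with 0.064 without sample 2; the cause was not tested.

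Values as deposited, without centring, moved the median of all named genes from -0.018 to -0.18, with 21.6% below 0 on all 3 arrays and 5.65% above. The sterol median was 0.16 there, 0.24 after scale normalization, 0.20 on rows with values on all 8 arrays, 0.16 with array weights and 0.12 to 0.46 with an array left out, and the ER median was 0.042 as deposited. Genes above 0 on all 3 arrays numbered 3 for each list as deposited. With 1 array left out (counted on the other 2, chosen after seeing the data), genes above 0 numbered 5 to 8 for sterol, 11 to 18 for the ER and 0 to 1 for MHC class II, and genes below 0 numbered 1 to 2 for sterol and 0 to 3 for the ER; over all named genes such 2-array counts gave 22.2% to 25.3% above 0 and 23.0% to 29.6% below. The NF-κB and MHC class II medians stayed between -1.29 and -0.71 and between -0.73 and -0.45.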
